A study of Mus musculus with 2 samples.

Results

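The interferon-stimulated genes and their regulators were examined in medullary thymic epithelial cells (mTEC), the cells of the thymic medulla that display tissue antigens to developing T cells. The set holds 43 of the 23411 genes listed for both libraries. These 43 are RNA and DNA sensors, interferon regulatory factors (Irf) with Stat2, antiviral effectors, GTPases, modifiers of the response and other interferon-stimulated genes. The rule lists them by name as genes that respond to type I or type II interferon, with Irf and Stat factors. It uses measured reads only to choose the transcript that stands for each gene. The names were chosen with earlier results of these data known. The study's title concerns Sirt1, a deacetylase, in the tolerance that depends on Aire, the regulator that drives tissue antigen expression in mTEC. Both samples were thymic mTEC of B6 mice, sorted by surface MHC class II into a high and a low fraction from 3 pooled animals. No genotype beyond the B6 background, no treatment and no age is given for either group. With 1 library per group there was no replicate check and no p-value, so each difference lies between these 2 libraries.

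Interferons signal through paired receptors and Jak kinases. Type I and type III interferons lead to ISGF3, a complex that holds Stat2 and Irf9 and binds the interferon-stimulated response element (ISRE). Type II interferon acts mainly through the gamma-activated site (GAS). In the thymus, mTEC are known to express interferons and interferon-stimulated genes without infection.

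The sequences before 5 members are shown, since they hold letters of the elements named above and since Ifit1 and Ifit3, which share the same letters, had ratios on opposite sides of 1. RefSeq promoter windows of GRCm38.p6 covered 34 of the 43 members, from 250 bases before to 50 bases after the start. Each was searched on both strands for the ISRE letters (GAAA, any 2 bases, GAAA) and the GAS letters TTCNNNGAA. Some genes have several windows, and a gene was counted as matched where any of them held a match. The 250 bases before the start are printed on the gene's own strand, 5′ to 3′, with every match in capitals. Isg15, at chr4:156200819-156201068 on the minus strand, had 3 overlapping ISRE matches. Bst2, at chr8:71537473-71537722 on the minus strand, had a GAS match that runs into the first of 2 ISRE matches. Ifit3, at chr19:34583279-34583528 on the plus strand, and Ifit1, at chr19:34640639-34640888 on the plus strand, each had 2 ISRE matches. Irf8, at chr8:120736108-120736357 on the plus strand, had 2 GAS matches. A second Irf8 window, with upstream bases chr8:120738389-120738638, held no match of either motif and is not printed.
Isg15: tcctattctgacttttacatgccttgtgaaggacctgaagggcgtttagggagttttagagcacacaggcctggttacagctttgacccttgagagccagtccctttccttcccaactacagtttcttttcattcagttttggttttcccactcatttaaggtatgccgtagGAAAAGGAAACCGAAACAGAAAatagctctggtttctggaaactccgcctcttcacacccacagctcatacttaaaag
Bst2: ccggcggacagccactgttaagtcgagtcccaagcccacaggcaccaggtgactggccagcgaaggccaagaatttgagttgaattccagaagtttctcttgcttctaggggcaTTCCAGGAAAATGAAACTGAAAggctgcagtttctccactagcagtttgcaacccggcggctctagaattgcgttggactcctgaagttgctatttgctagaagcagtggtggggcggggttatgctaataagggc
Ifit3: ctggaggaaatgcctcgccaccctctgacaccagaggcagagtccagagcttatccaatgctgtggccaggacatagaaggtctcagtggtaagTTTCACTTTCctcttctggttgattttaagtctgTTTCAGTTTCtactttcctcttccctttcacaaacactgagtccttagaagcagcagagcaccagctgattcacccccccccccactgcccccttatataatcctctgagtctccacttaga
Ifit1: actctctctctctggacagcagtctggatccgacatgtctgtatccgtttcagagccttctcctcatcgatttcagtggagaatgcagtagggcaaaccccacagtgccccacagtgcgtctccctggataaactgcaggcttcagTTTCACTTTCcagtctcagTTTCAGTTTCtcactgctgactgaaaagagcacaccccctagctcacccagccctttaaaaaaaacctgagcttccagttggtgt
Irf8: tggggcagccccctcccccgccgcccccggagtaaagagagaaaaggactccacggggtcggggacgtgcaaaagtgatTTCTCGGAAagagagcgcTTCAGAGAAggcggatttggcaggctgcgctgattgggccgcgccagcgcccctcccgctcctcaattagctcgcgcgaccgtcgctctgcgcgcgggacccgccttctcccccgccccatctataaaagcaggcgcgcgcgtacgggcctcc
Ifit3 and Ifit1 carry the same pair of matches, TTTCACTTTC and TTTCAGTTTC, beginning 156 and 122 bases before the start in Ifit3 and 104 and 85 bases before it in Ifit1. Their ratios are given among the effectors.

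The members made up 0.453% of the 138368543 reads on genes in the MHC-II high library and 0.809% of the 56077471 in the MHC-II low library. Levels are given as CPM, read counts brought to a common scaled library total. A ratio carries an exact 95% Clopper-Pearson interval that covers counting error only, as PCR reads without molecular identifiers are not independent molecules. A gene is called higher or lower where the whole interval lies beyond 2-fold. Each of the 43 members passed the minimum mean of 1 CPM, and the fewest reads of any member were 1444 in MHC-II high and 1178 in MHC-II low. The labelled cell type was checked against its markers. Epcam, which marks epithelium, stood at 647 CPM in MHC-II high and 562 CPM in MHC-II low cells. Aire stood at 595 and 20.2 CPM, and the 7 MHC class II genes summed to 22627 and 11770 CPM.

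The interferon genes stood mostly lower in MHC-II high mTEC. Of 43 members, 26 were called lower, 3 higher and 14 neither. Among the 17441 genes compared, 9.25% were called lower and 16.4% higher, with 2868 higher and 1614 lower; with no expression minimum that split was 3202 to 3459. The median log2 ratio of the members, MHC-II high over MHC-II low, was −1.26, beside 0.11 for all genes compared. Single members ranged from −3.62 for Ifit3 to 2.08 for Irf5. In sorted bulk RNA, fewer cells of a type and less RNA per cell cannot be told apart. In all, 29 members lay below the lower quartile of all genes and 5 above the upper quartile.

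**Figure D1:**
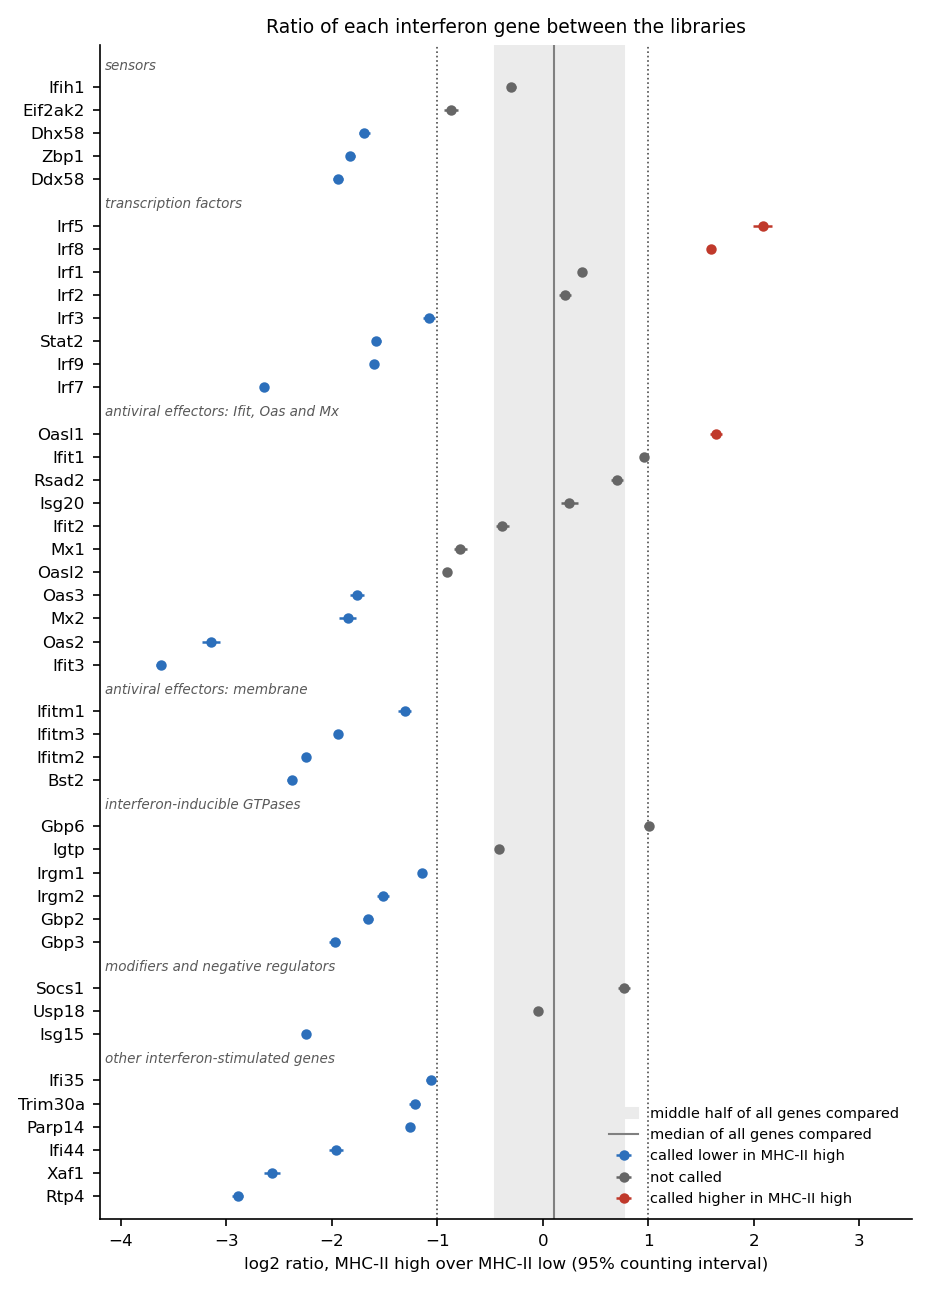
Log2 ratio of MHC-II high over MHC-II low for each of the 43 members, grouped by role, with the 95% counting interval as a bar, dotted lines at 2-fold and a grey band from the lower to the upper quartile of all 17441 genes compared. The 26 genes called lower lie left of the left dotted line, from Ifi35 at −1.06 to Ifit3 at −3.62, while Oasl1, Irf8 and Irf5 lie right of the other.

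Summed over the members, the level was 4273 CPM in MHC-II high and 8581 CPM in MHC-II low cells, 2.01-fold more in the low one. Ifitm3 weighs most in this sum, and without it the sums were 3816 and 6828 CPM, 1.79-fold. Both folds depend on the library scaling, and the read totals behind the deposited RPKM shift every log2 ratio up by 0.88. Per kilobase of transcript, the scale on which genes can be compared with each other, Ifitm3 led in both libraries with 704 and 2706 CPM per kb. That was 28.7% of the members' summed level in MHC-II high and 42.0% in MHC-II low. After Ifitm3 the order differed. In the high library came Irf1 (176 CPM per kb), Irf8 (127), Usp18 (121) and Ifitm2 (117). In the low library came Ifitm2 (553 CPM per kb), Isg15 (371), Bst2 (301) and Irf7 (290). Oas2 was last in the high library, at 2.55 CPM per kb, and Irf5 last in the low one, at 9.93 CPM per kb. The median member stood at 24.6 and 43.2 CPM per kb.

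**Figure D2:**
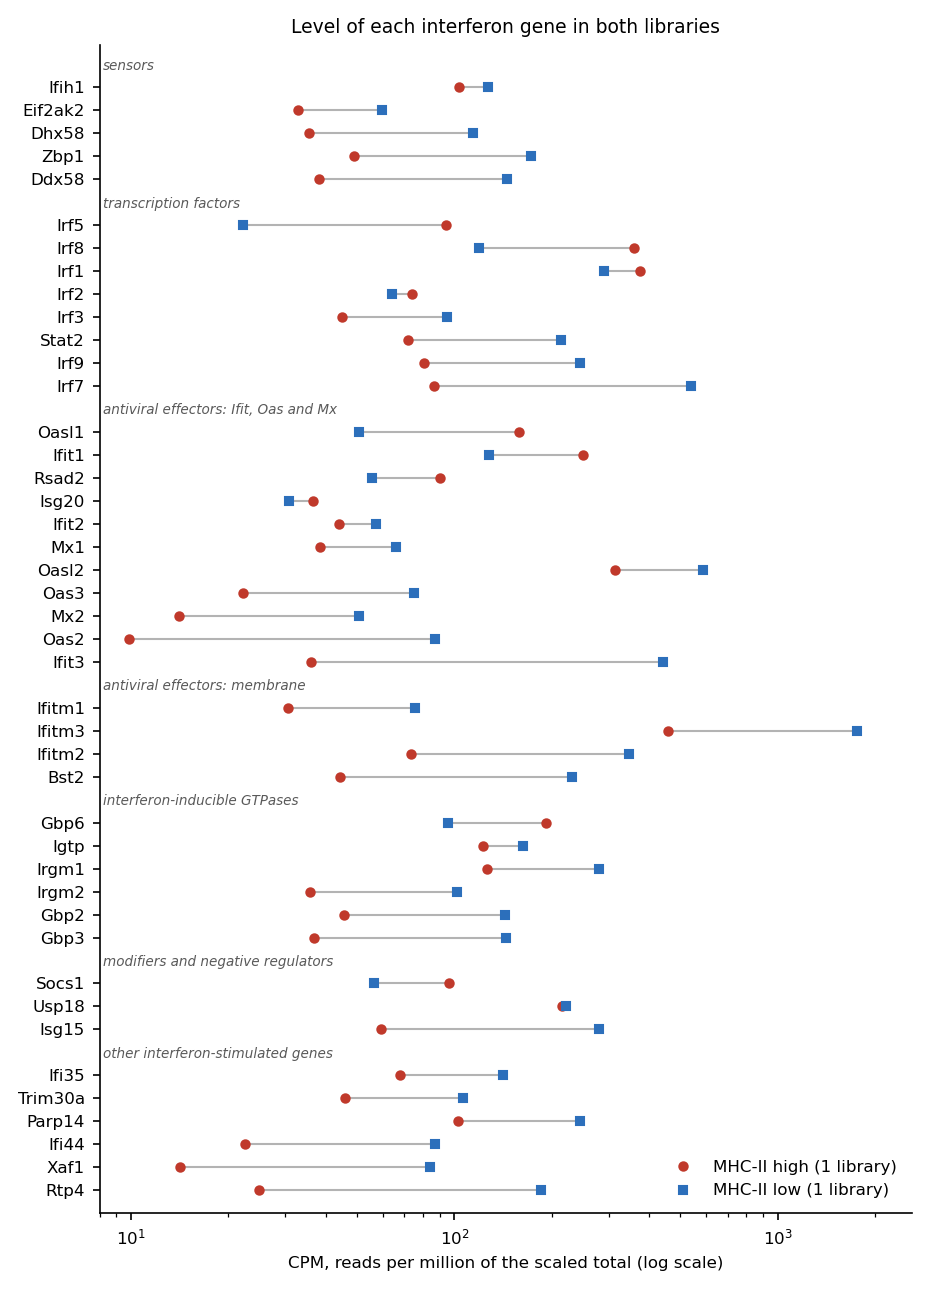
Level of each of the 43 members in CPM on a log axis, with a circle for the MHC-II high and a square for the MHC-II low library, 1 library each, grouped by role. Ifitm3 lies farthest right in both libraries, at 456 and 1754 CPM, and the squares lie right of the circles for 33 of 43 genes.

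The sensors detect viral nucleic acid and start the response, and 3 of 5 were called lower in MHC-II high mTEC. Ddx58 encodes RIG-I, which binds viral RNA with a 5′ triphosphate. It stood at 38.0 CPM in MHC-II high and 146 CPM in MHC-II low cells, 3.83-fold lower (3.70 to 3.97). Its relative Dhx58, which encodes LGP2, stood at 35.4 and 114 CPM, 3.23-fold lower (3.11 to 3.35). Zbp1, a sensor of Z-form nucleic acid that can start necroptosis, stood at 48.8 and 173 CPM, 3.54-fold lower (3.43 to 3.65). The other sensors were not called. Ifih1, the gene of the long double-stranded RNA sensor MDA5, stood at 103 and 127 CPM (log2 ratio −0.30). Eif2ak2 encodes the kinase PKR, which stops translation on double-stranded RNA, and stood at 32.8 and 59.8 CPM (−0.87). The RIG-I family thus did not move as 1 block: the log2 ratio of Ifih1 exceeded that of Ddx58 by 1.64, a difference that no library scaling changes.

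The transcription factors fell into opposite groups, 4 of 8 called lower and 2 higher. Irf7, the factor that amplifies type I interferon expression, had 86.3 CPM in MHC-II high and 540 CPM in MHC-II low cells, 6.25-fold lower (6.12 to 6.38). The ISGF3 subunit Irf9 had 80.7 and 244 CPM, 3.03-fold lower (2.95 to 3.11), and its partner Stat2 had 71.7 and 214 CPM, 2.98-fold lower (2.90 to 3.06). Irf3, which acts directly below the sensors, had 44.8 and 94.6 CPM. It lay just past the threshold, at 2.11-fold lower (2.03 to 2.19), and with unscaled read totals it was not called.

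Irf5 and Irf8 lay on the other side. Irf8, known for its part in dendritic cell and B cell development, had 360 CPM in MHC-II high and 119 CPM in MHC-II low cells, 3.01-fold higher (2.94 to 3.09). Irf5, which acts below Toll-like receptors, had 94.4 and 22.3 CPM, 4.24-fold higher (3.99 to 4.50). Irf1, an activator of many interferon gamma targets, had 376 and 290 CPM (log2 ratio 0.37), and its antagonist Irf2 had 74.1 and 64.2 CPM (0.21); neither was called. Between Irf8 and Irf7 the log2 ratios differed by 4.24, and between Irf5 and Irf7 by 4.73.

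Markers of other cells were read beside Irf8 and Irf5, in the same single comparison of 2 libraries. The 14 dendritic cell and macrophage markers in the tables summed to 510 CPM in MHC-II high and 141 CPM in MHC-II low cells, 3.63-fold more in the high one. Of the 13 that passed the minimum, 6 were called higher and 0 lower, beside 16.4% and 9.25% of all genes compared. The log2 ratio was positive for 9 and negative for 4, namely Itgax, Clec9a, Mertk and the general leukocyte gene Ptprc (14.1 and 18.6 CPM). Lyz2 held 377 of the 510 CPM, and Flt3 stood at 6.93 and 1.25 CPM, Itgax at 1.98 and 3.06 CPM. The 6 B cell markers summed to 42.5 and 24.8 CPM, with 3 of 5 past the minimum called higher. Of these, Ms4a1, at 3.97 and 0.53 CPM, passed only through the MHC-II high library. The 10 plasmacytoid dendritic cell markers summed to 890 and 897 CPM with no call among 9, and Siglech, which defines that cell, stood at 0.88 and 1.02 CPM. Spib, at 513 and 396 CPM, and Ly6d, at 216 and 299 CPM, held most of that sum. No marker was at 0 reads in either library. The part of these cells, or of the mTEC themselves, in the Irf8 and Irf5 values was not tested.

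The Ifit, Oas and Mx effectors, which bind viral RNA, trigger its decay or block viral assembly, were divided as well: 4 of 11 were called lower and 1 higher. Ifit3, which stabilises Ifit complexes on viral RNA, stood at 36.0 CPM in MHC-II high and 442 CPM in MHC-II low cells, 12.3-fold lower (11.9 to 12.7). Ifit1, which binds RNA caps that lack 2′-O-methylation, stood at 250 and 128 CPM, 1.95-fold higher (1.90 to 2.00), and was not called. Ifit2 stood at 44.0 and 57.4 CPM (log2 ratio −0.38). So Ifit1 and Ifit3, whose upstream sequences hold the same ISRE letters, differed by 4.58 in log2 ratio, or 23.9-fold. Ifit2 lies next to Ifit3, and 3 coding genes lie between Ifit3 and Ifit1. Of all 100-base windows of Ifit3 transcripts, 31.7% also occur in Ifit3b, so reads of that pair can be shared. Ifit3b itself stood at 21.3 and 239 CPM, a log2 ratio of −3.48.

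The oligoadenylate synthetase genes also split. Oas2 and Oas3 make the 2-5A messenger that activates RNase L. Oas2 stood at 9.84 CPM in MHC-II high and 87.2 CPM in MHC-II low cells, 8.85-fold lower (8.34 to 9.40), and Oas3 at 22.2 and 74.9 CPM, 3.38-fold lower (3.23 to 3.54). Oasl1, known in mice to restrain Irf7 translation, went the other way with 159 and 50.8 CPM, 3.12-fold higher (3.00 to 3.25). Its neighbour Oasl2 had 314 and 587 CPM, 1.87-fold lower (1.84 to 1.90), which was not a call. Adjacent on the chromosome, Oasl1 and Oasl2 differed by 2.55 in log2 ratio. With the Oas1 genes of the pathway list added, 5 of 7 Oas and Oasl genes were called lower and only Oasl1 higher, and 3 were lower when scaled to the totals implied by the deposited RPKM.

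Mx2, a gene of the dynamin-like Mx family, stood at 14.1 CPM in MHC-II high and 50.8 CPM in MHC-II low cells, a log2 ratio of −1.85 that was called lower. Of its 2 listed transcripts, 1 is a non-coding record with the same reads. Mx1, whose B6 allele is known to make no working protein, stood at 38.5 and 66.2 CPM (log2 ratio −0.78). Rsad2 encodes viperin, which makes a chain-terminating nucleotide, and stood at 90.4 and 55.6 CPM (0.70). The exonuclease gene Isg20 stood at 36.6 and 30.7 CPM (0.25). None of Mx1, Rsad2 and Isg20 was called.

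All 4 membrane effectors were called lower in MHC-II high mTEC. The Ifitm proteins block fusion of viruses with endosomes. Ifitm3 stood at 456 CPM in MHC-II high and 1754 CPM in MHC-II low cells, 3.84-fold lower (3.80 to 3.88). Ifitm2 stood at 73.4 and 347 CPM, 4.73-fold lower (4.62 to 4.84), and Ifitm1 at 30.6 and 75.8 CPM, 2.48-fold lower (2.37 to 2.59). These 3 genes lie next to each other and were all called lower. Of the 100-base windows of Ifitm2 transcripts, 34.9% occur in other genes, so its reads are partly shared. Bst2, or tetherin, holds budding virus at the cell surface and is also a known marker of plasmacytoid dendritic cells. It stood at 44.3 and 231 CPM, 5.21-fold lower (5.05 to 5.37).

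The interferon-inducible GTPases act against vacuolar pathogens, and 4 of 6 members were called lower. The guanylate-binding genes Gbp3 and Gbp2 stood at 36.9 and 145 CPM and at 45.5 and 143 CPM, 3.92-fold and 3.14-fold lower. Gbp6 had 192 CPM in MHC-II high and 95.9 CPM in MHC-II low cells, 2.00-fold higher (1.95 to 2.07), just outside a call. As 82.9% of its 100-base windows occur in other genes, among them Gbp10 and Gbp11, its value is uncertain. Among the immunity-related (IRG) GTPases, Irgm1 stood at 126 and 279 CPM, 2.21-fold lower (2.16 to 2.26), and Irgm2 at 35.8 and 102 CPM, 2.85-fold lower (2.74 to 2.96). Irgm1 was not called with unscaled read totals. Igtp, which lies beside Irgm2, stood at 122 and 163 CPM (log2 ratio −0.41).

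Isg15, a ubiquitin-like protein attached to other proteins, and Usp18, the protease that removes it and also blocks the type I receptor, parted. Isg15 stood at 59.4 CPM in MHC-II high and 280 CPM in MHC-II low cells, 4.72-fold lower (4.60 to 4.85). Usp18 stood at 215 and 221 CPM, a log2 ratio of −0.04 that turned to 0.13 with unscaled totals. The difference between them was 2.20 in log2 ratio. Socs1, an inhibitor of Jak kinases, stood at 96.0 and 56.4 CPM (0.77), which was not a call.

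The remaining 6 members were all called lower in MHC-II high mTEC. Rtp4, a receptor transporter protein that binds viral RNA, stood at 24.9 CPM in MHC-II high and 185 CPM in MHC-II low cells, 7.42-fold lower (7.15 to 7.71). Xaf1, which promotes apoptosis, stood at 14.2 and 83.9 CPM, 5.91-fold lower (5.60 to 6.22), and Ifi44 at 22.5 and 87.3 CPM, 3.88-fold lower (3.71 to 4.06). Smaller folds were read for Parp14, an ADP-ribosyltransferase (103 and 245 CPM, 2.39-fold), and for Trim30a, a TRIM-family regulator of inflammatory signalling (45.8 and 106 CPM, 2.32-fold). Ifi35, whose protein pairs with Nmi, was the nearest to the threshold, with 67.8 and 141 CPM, 2.09-fold lower (2.02 to 2.15). Trim30a and Ifi35 were not called with unscaled read totals.

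The calls depend on the library scaling to unequal degrees. At each of 6 scalings tried, 12 members were called lower: Ddx58, Irf7, Ifit3, Oas2, Ifitm2, Ifitm3, Bst2, Gbp3, Isg15, Ifi44, Xaf1 and Rtp4. Irf5, Irf8 and Oasl1 were called higher at each. The read totals behind the deposited RPKM shift every log2 ratio up by 0.88 and gave 12 members lower and 10 higher, with a median of −0.37. Of all genes, 2.94% were lower and 45.2% higher with those totals. Unscaled totals gave 22 members lower and 5 higher, Ifit1 and Gbp6 among them, beside 7.35% and 19.8% of all genes. TMM over genes past the minimum gave 27 and 3, beside 10.9% and 14.5%. With a 1.5-fold rule 29 members were lower and 7 higher (17.1% and 26.1% of all genes), and with a 4-fold rule 8 and 0 (2.87% and 5.72%). With the RPKM totals Ifih1, Eif2ak2, Ifit2, Mx1, Igtp and Usp18 turned positive.

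Markers of other cells were also read beside the members that were lower in MHC-II high mTEC. The 8 endothelial markers summed to 75.9 CPM in MHC-II high and 485 CPM in MHC-II low cells, and 8 of 8 were called lower. Of these, Emcn, at 0.11 and 12.3 CPM, passed the minimum only through the MHC-II low library. The 8 fibroblast and mural cell markers summed to 443 and 1212 CPM with 5 of 8 called lower, and the 5 erythroid genes to 107 and 3810 CPM with 4 of 5 lower. Hba-a1 and Hba-a2 carried the same reads, 34.2 and 1289 CPM each, so the erythroid sum and count include those reads under both names. T cell and thymocyte markers summed to 52.2 and 72.6 CPM, with 2 of 9 called lower and 1 higher. The medullary epithelial markers themselves summed to 6925 and 19451 CPM, with 3 of 10 higher (Aire, Fezf2 and Foxn1) and 3 lower. Those 3 lower genes held most of the low sum: Ccl21a (398 and 6421 CPM), Krt5 (800 and 5628 CPM) and Krt14 (306 and 2214 CPM). Epcam (log2 ratio 0.20), Cdh1 (−0.20) and Krt8 (−0.20) were not called, so the sum does not measure epithelial content. The defining endothelial gene Pecam1 stood at 7.91 and 156 CPM, and the fibroblast gene Pdgfra at 4.51 and 39.8 CPM. The mural cell genes Rgs5, at 244 and 168 CPM, and Pdgfrb, at 42.5 and 22.4 CPM, stood at higher values in the high library and were not called. The part of these cells, or of the mTEC themselves, in the lower interferon genes was not tested.

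**Figure D3:**
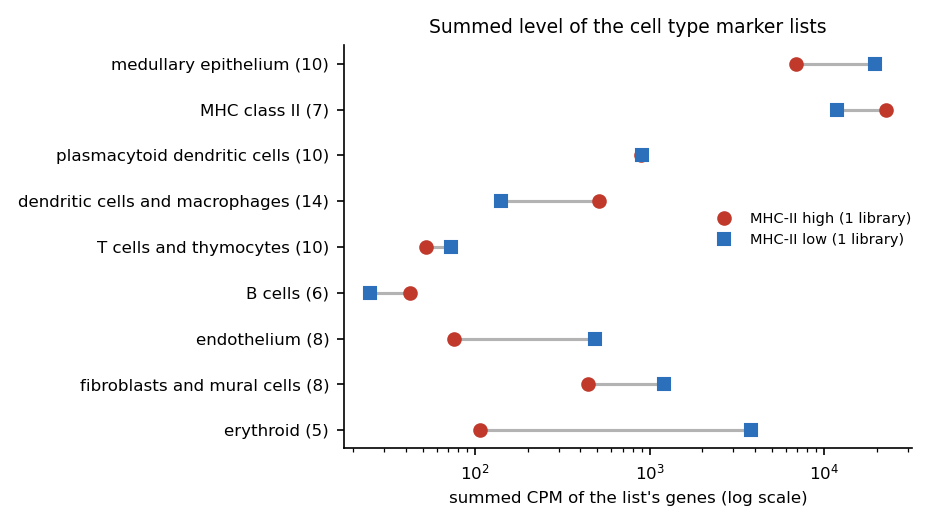
Summed CPM of each cell type marker list on a log axis, with a circle for the MHC-II high and a square for the MHC-II low library and the number of genes in brackets. Endothelial (75.9 and 485 CPM), fibroblast (443 and 1212 CPM) and erythroid (107 and 3810 CPM) sums are higher in the low library, and the dendritic cell and macrophage sum (510 and 141 CPM) is higher in the high one. The erythroid sum includes the same reads under both Hba-a1 and Hba-a2.

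The rest of the interferon pathway was read from 94 further genes in 7 groups by role, 1 of them Irf4 alone. Of these, 75 passed the minimum, with 12 called higher (16%) and 21 lower (28%) and a median log2 ratio of −0.53. The 12 include the 4 ligands described below, which passed the minimum only through the MHC-II high library. Among all genes compared, 16.4% were called higher and 9.25% lower, and 45.2% and 2.94% with the RPKM totals. Each group below is read beside these shares. Of 9 genes for receptor chains and Jak kinases, 0 were called higher and 1 lower, but 5 and 0 with the RPKM totals. The gene called lower was Ifnlr1, for the lambda receptor, at 7.74 CPM in MHC-II high and 21.3 CPM in MHC-II low cells, 2.76-fold lower. The type I receptor genes Ifnar1 and Ifnar2 had log2 ratios of 0.23 and −0.94. Ifngr1 and Ifngr2, for the type II receptor, had −1.03 and 0.65, and none of these 4 was called.

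The ligands were scarce. Of 21 interferon genes listed, 4 passed the minimum, and each did so only through the MHC-II high library, so their direction was set by that filter. Ifnb1 had 365 reads in MHC-II high and 6 in MHC-II low, 2.49 and 0.11 CPM, a ratio of 21.9 (9.98 to 60.2). The lambda genes Ifnl2 and Ifnl3 had 5.41 and 0.51 CPM and 4.97 and 0.85 CPM, ratios of 10.6 (7.23 to 16.2) and 5.84 (4.32 to 8.08). Ifng, named after its value was seen because it completes the count, had 4.12 and 0.83 CPM, a ratio of 4.96 (3.65 to 6.90). These levels lie far below those of the members. The 14 interferon alpha genes, none of which passed, had 173 and 199 reads in all, or 1.18 and 3.76 CPM, so their sum was higher in the low library. Ifna4 went the other way with 80 and 4 reads, while Ifna14 had 6 and 65, both named after their values were seen. Near-identical interferon genes share reads, with 11.1% of Ifnl2 windows found in Ifnl3.

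Irf4, a factor known in lymphocytes and dendritic cells, stood at 288 CPM in MHC-II high and 24.0 CPM in MHC-II low cells, 12.0-fold higher (11.4 to 12.7). With it added, 3 of 8 Irf genes were called higher and 3 lower, but 5 and 1 with the RPKM totals. Of all genes compared, 16.4% were called higher and 9.25% lower, and 45.2% and 2.94% with the RPKM totals. Among 10 genes of nucleic acid sensing and signalling past the minimum, 2 were called higher and 0 lower, and 6 and 0 with the RPKM totals. These higher counts lie near the shares of all genes called higher. Tlr9, a receptor for unmethylated CpG DNA, stood at 32.7 and 2.63 CPM, 12.5-fold higher, and the inflammasome sensor gene Aim2 at 33.8 and 7.58 CPM, 4.46-fold higher. Sting1, the adaptor below cGAS, and Trim25, which ubiquitinates RIG-I, had log2 ratios of 0.57 and −0.05.

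A further list of 34 interferon-stimulated genes gave 15 lower and 1 higher of 33 past the minimum, with a median of −1.01; the RPKM totals gave 8 lower and 3 higher, with a median of −0.13. Ifi27l2a stood at 49.4 CPM in MHC-II high and 706 CPM in MHC-II low cells, 14.3-fold lower. Ly6e, which restricts viral entry, stood at 1187 and 2394 CPM, a log2 ratio of −1.01 that was called lower but not with unscaled totals. The chemokine gene Cxcl10 stood at 1131 and 570 CPM (0.99), not called. The 1 gene called higher was Ifit1bl1, named after its value was seen, with 19.0 and 5.46 CPM. It is one of the genes that lie between Ifit3 and Ifit1.

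The GTPase families parted when all their genes were counted. Of 10 Gbp genes, 4 were called higher and 2 lower, with a median log2 ratio of 1.03. That median is the midpoint of Gbp6 and Gbp10, which share 82.9% and 70.9% of their windows with other genes, so it is uncertain. Gbp4 stood at 224 CPM in MHC-II high and 33.3 CPM in MHC-II low cells, 6.73-fold higher, and Gbp11 at 28.9 and 5.79 CPM, a log2 ratio of 2.32 that was called higher. Of 7 IRG genes, 0 were called higher and 5 lower, with a median of −1.22. With the RPKM totals 0 of the 7 were called and the median was −0.34. Tgtp2 stood at 181 and 618 CPM, 3.41-fold lower, and Iigp1 at 161 and 376 CPM, 2.33-fold lower. Tgtp2 shares 80.4% of its windows with other genes, mainly Tgtp1. It is listed with 5633 bases and 26599 and 32682 reads, and Tgtp1 with 2809 bases and 12623 and 16050 reads. The Tgtp2 level may thus hold reads of both genes, and both are among the 5 called lower. Among 6 negative regulators 0 were called higher and 2 lower, but 3 and 0 with the RPKM totals. With those totals 45.2% of all genes compared were called higher. The 2 called lower were Socs3, at 437 and 1134 CPM, 2.60-fold lower, and the phosphatase gene Ptpn6, at 72.6 and 178 CPM, 2.46-fold lower.

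**Figure D4:**
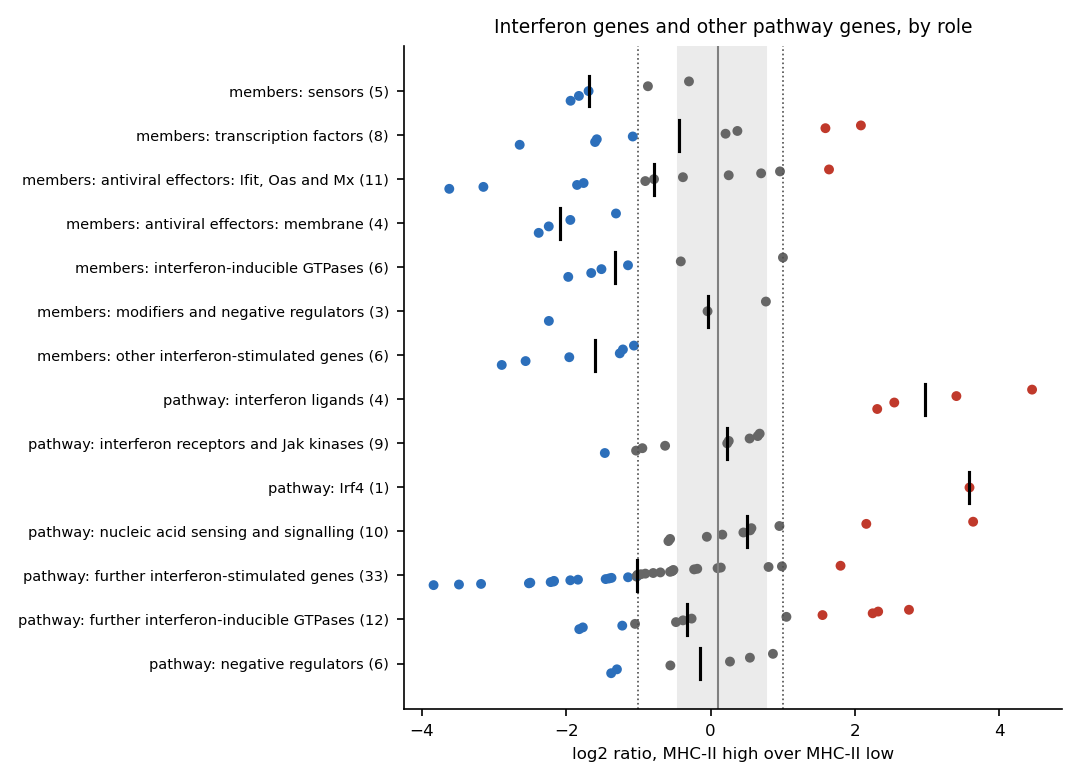
Log2 ratio of MHC-II high over MHC-II low for every gene past the minimum, in the 7 member roles and the 7 pathway groups, with the number of genes in brackets, a black bar at each median, blue for called lower, red for called higher and grey for neither. The membrane effectors (median −2.09) and the other interferon-stimulated members (−1.61) lie wholly left of the 2-fold line. The 4 ligands, which passed the minimum only through the MHC-II high library, lie right of the 2-fold line on the other side.

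The letters near the start were frequent in the members. ISRE letters occurred in the windows of 20 of 34 members (58.8%), beside 1079 of 27025 genes with a window (3.99%). GAS letters occurred in 11 of 34 members (32.4%), beside 2582 of 27025 genes (9.55%). Both were found in 6 members: Bst2, Eif2ak2, Ifitm3, Igtp, Irf2 and Irgm2. In Bst2 and Ifitm3 a GAS match overlapped an ISRE match. Of 30 ISRE matches, 21 began within 150 bases before the start, as did the 3 of Isg15, which begin 78, 72 and 66 bases before it.

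The letters were set beside the readings. Windows with ISRE letters belonged to 13 of 20 members called lower, 0 of 3 called higher and 7 of 11 not called. GAS letters occurred in 4 of 20 called lower, 1 of 3 called higher (Irf8) and 6 of 11 not called. The ISRE share was thus close between the genes called lower (65.0%) and those not called (63.6%). Neither motif's letters occurred in the windows of Ifi44, Ifitm1, Irf3, Irf5, Irf7, Irf9, Oasl1, Oasl2 and Xaf1, which include 2 of the 3 genes called higher. A match is a description of letters and not of a bound site, and a missing match says only that these letters are not in that window.

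**Figure D5:**
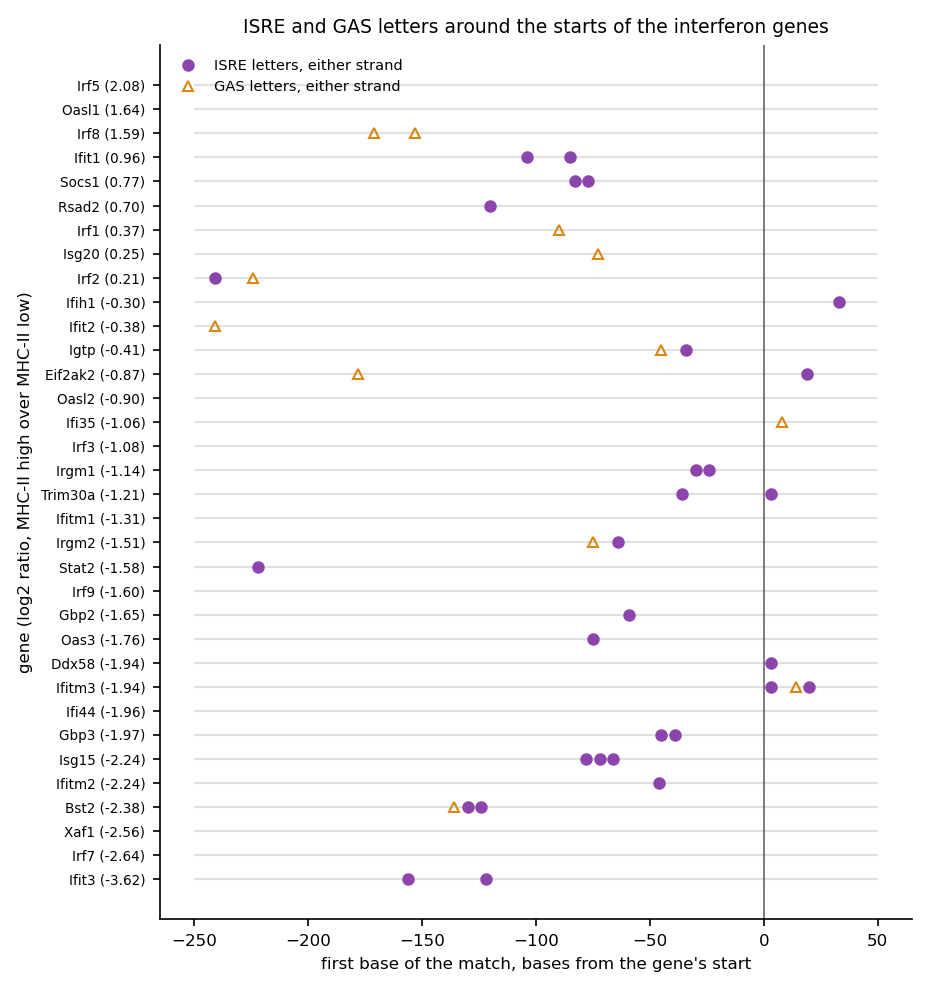
Position of each ISRE match (circle) and GAS match (triangle) from 250 bases before to 50 bases after the start, for the 34 members with a window, ordered from the highest to the lowest log2 ratio of MHC-II high over MHC-II low. Circles lie mostly just before the start, and none falls in the top 3 rows, Irf5, Oasl1 and Irf8.

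Read sharing and strand bear on single values. Transcripts of 26 of 43 members had no 100-base window in common with another gene, and only Gbp6, Ifitm2 and Ifit3 had over 10%. The library kit does not keep strand, and exons of 10 members overlap a gene on the opposite strand. The largest such overlap is that of Ifi35, which shares 16.8% of its exon bases with Gm11626. Irf5 overlaps Tnpo3 over 14.2% of its exon bases, and the log2 ratios were 0.74 for Tnpo3 and 2.08 for Irf5. The part of opposite-strand reads in these values was not tested. For the 11 members with several listed transcripts, the log2 ratios of a gene's transcripts differed by 0.07 at most, and those transcripts share reads.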

How the data were processed

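Poly-A RNA of 1 MHC-II high and 1 MHC-II low library was read, about 100 ng of RNA each with 15 PCR cycles and a kit that keeps no strand. The submitters' processing notes name mm9, CASAVA, Bowtie 1.0.0 and bedtools, with no settings. For each RefSeq transcript the authors deposited a read count, a length and an RPKM value, per the file headers. The deposited RPKM values gave back 1 read total per library, 213854095 for high and 142330178 for low. The counts summed over all listed transcripts came to 89.5% and 52.0% of these totals. Reads shared by several transcripts of a gene enter that sum more than once, so these are not shares of reads.

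Copies of a transcript, on 840 lines of the high table, were summed, and 18 and 36 stray lines were left out. Of 29920 accessions, 29800 were used, and 33 with unequal lengths were left out. Symbols came from RefSeq and GENCODE vM21, with 394 accessions unnamed. The transcript of highest summed read count stood for its gene. Reads were scaled with TMM over all genes in edgeR 4.0.16 (R 4.3.3), to totals of 146702907 and 52891644. Intervals were exact Clopper-Pearson limits from scipy 1.17.1. Genes with a mean of 1 CPM were compared by a 2-fold rule. The calls were tried on simulated counts that hold counting error only, so that trial does not cover PCR copies, replicate spread or scaling. Shared 100-base windows were counted over GENCODE vM21 transcripts.

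The members and lists were chosen with earlier results of these data known. All members could be named. From pathway lists, those of 10 or fewer genes could be named whole, and otherwise the 2 with the most reads and the 2 with the largest ratio past the minimum. Scaling (also DESeq2 1.42.0), the minimum, the transcript choice, the fold and the handling of copies were varied. Whether both mates of a pair were counted is unknown here. Some listed pathway genes are not reported here.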

Additional observations from a re-analysis of the deposited data

How the results depend on the processing

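Of 12 alternatives, those not given below (DESeq2 size factors, TMM without Lars2 and a ribosomal RNA record, other minimums, other transcript choices, first copies only) left 26 members lower and 3 higher, with medians of −1.26 to −1.25. Unscaled read totals, which move log2 ratios by 0.17, gave 5 members higher, adding Ifit1 and Gbp6, and 22 lower. The read totals behind the deposited RPKM gave 10 higher and 12 lower, with a median of −0.37. A 1.5-fold rule gave 7 higher and 29 lower, and a 4-fold rule 0 higher and 8 lower, against 5.72% and 2.87% of all genes. TMM over genes past the minimum, chosen after seeing the data, gave 27 lower, adding Oasl2.

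Over all genes the split was 2868 higher to 1614 lower. It was 3453 to 1282 with unscaled totals, 7232 to 471 with the RPKM totals, 2530 to 1907 with TMM over genes past the minimum, and 3202 to 3459 with no minimum. Usp18 changed sign with unscaled totals, and 6 members with the RPKM totals. No paired analysis was possible because there was 1 library per group. Depth does not limit the members, whose fewest reads were 1178, but it limits ligands such as Ifnb1 with 6 reads in the low library.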
